A study of Yarrowia lipolytica with 3 samples.

Results

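In the yeast Yarrowia lipolytica, 240 genes were at least 2-fold higher with MHY1 overexpression than in wild type and within 2-fold of wild type in the mhy1 deletion strain. They were selected on their measured RPKM from 6448 gene identifiers listed, of which 6035 reached 1 RPKM (reads scaled to gene length and library size) in at least 1 library. The selection used all 3 libraries: log2((overexpression + 1)/(wild type + 1)) of 1 or more, and log2((deletion + 1)/(wild type + 1)) between -1 and 1. It also left out 5 genes by name (HOY1, TGL3, POX2, POX3 and POT1). The rises over wild type and the limits on the deletion values are therefore what the genes were chosen by, and are given as a description.

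The series compared 3 strains, each with 1 RNA-seq library: a strain overexpressing MHY1, an mhy1 deletion strain and the wild type, all labelled as PO1a. Cultures of 50 ml were grown at 30 °C to an OD600 of 0.8 in YNDC7 medium with uracil, which all 3 strains received. The promoter and the copy that drive MHY1 in the overexpression strain are not stated in the labels. With 1 library per strain there is no replicate spread and no test, and every interval below covers counting error only.

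MHY1 encodes a zinc-finger transcription factor of the C2H2 type, known in this yeast for its part in the switch from single yeast cells to hyphae. A deletion shows which genes need such a factor under the growth condition, and overexpression shows which respond to more of it. Y. lipolytica is studied for its dimorphic growth, for its use of fats and alkanes as carbon sources and for its lipid stores. The identifiers of the 240 genes are paired with no name or function in the files, and 0 of the 6448 matched the reference gene table, so the genes below are given by identifier alone.

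The label of the overexpression library was checked on MHY1 itself (YALI0B21582g). It was at 1159 RPKM in the overexpression library (74881 reads), was listed at 0 in the deletion library and was at 467 RPKM in wild type (19064 reads). The overexpression library thus held MHY1 at 2.48-fold the wild-type level (95% counting interval 2.44 to 2.52). The libraries held 75306802, 59527000 and 47622181 reads in the overexpression, deletion and wild-type strains, as implied by the RPKM steps. Across all genes compared the overexpression values were shifted upward slightly, with a median log2 ratio over wild type of 0.16.

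With overexpression, 361 genes (5.98% of those compared) stood 2-fold or more above wild type, and 92.5% of the genes compared were within 2-fold of wild type in the deletion. The 240 genes made up most of the 361. The others were 107 genes, MHY1 itself among them, that the deletion lowered 2-fold or more, 9 that it raised as much, and the 5 named genes. Relative to the median of all genes, 160 genes met the rule, 157 of them among the 240. Under median-of-ratios scaling 171 did, 168 of them among the 240. In bulk RNA of a culture, more RNA of a gene per cell cannot be told apart from more cells that express it.

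**Figure D1:**
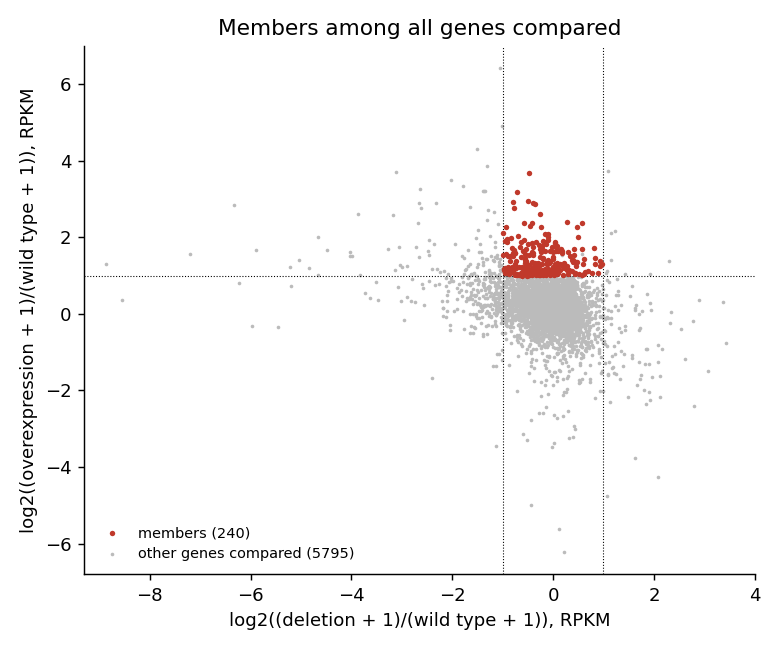
Each point is a gene, with the log2 ratio of deletion over wild type across and of overexpression over wild type upward, both on RPKM + 1. Dotted lines mark 2-fold; the 240 members fill the area above the horizontal line between the vertical ones, and more of them lie left of 0 than right of it.

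The genes were mostly weak in wild type. Their RPKM had a median of 14.5 in the overexpression library, ranging from 1.10 to 1673. In the deletion library the median was 3.15 and the range 0 to 442, and in wild type the median was 3.80 and the range 0 to 809. Over all genes compared, the medians were 38.0, 31.6 and 34.1 RPKM in the overexpression, deletion and wild-type libraries. The members were thus below the typical gene in all 3 libraries, including the one in which they were raised.

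**Figure D2:**
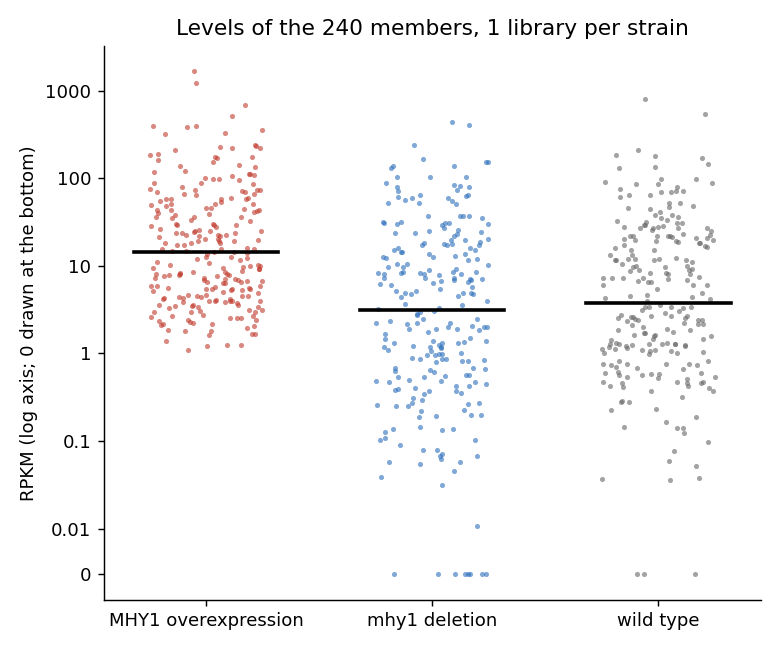
RPKM of the 240 members in the 3 libraries on a log axis, 1 point per gene, with values of 0 drawn at the bottom and black lines at the medians (14.5, 3.15 and 3.80 RPKM in overexpression, deletion and wild type). The overexpression points lie mostly above the others, while deletion and wild type cover nearly the same range with a longer low tail in the deletion.

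Summed over the 240 genes, the level was 14284 RPKM in the overexpression library, 4875 in the deletion library and 5619 in wild type. The overexpression sum was 2.54-fold the wild-type sum, and 2.62-fold without the most abundant member. In reads, the genes took 1.52% of the overexpression library, 0.531% of the deletion library and 0.605% of the wild-type library. The 10 most abundant members held 43.9% of the summed RPKM in overexpression, and all the other members shared the rest.

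Members were more frequent among weak genes, partly by the filter at 1 RPKM. Of the 187 genes compared that were under 1 RPKM in wild type, 57 (30.5%) were members. Between 1 and 10 RPKM it was 94 of 1010 genes (9.31%), between 10 and 100 RPKM 80 of 3387 (2.36%), and at 100 RPKM or more 9 of 1451 (0.620%). In the lowest class the filter itself selects for a rise: 160 of its 187 genes, 55 of them members, were under 1 RPKM in both other libraries and entered only by their overexpression value. Without the filter, 544 genes with a read were under 1 RPKM in wild type, and the 57 members were 10.5% of them, close to the share in the next class. The median log2 ratio of overexpression over wild type was 0.26 for these 544 genes and -0.03 for genes at 100 RPKM or more. The part of this difference between weak and strong genes in the membership was not tested.

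**Figure D3:**
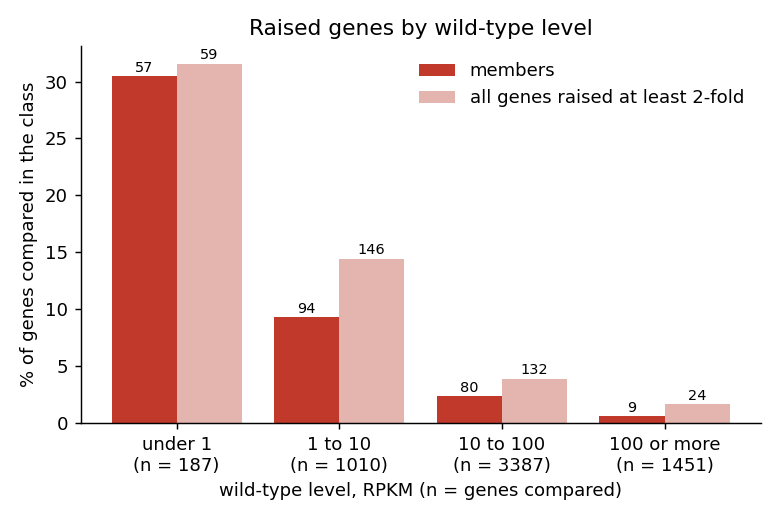
Share of the genes compared that are members (dark bars) or are raised at least 2-fold in overexpression whatever the deletion shows (light bars), in 4 classes of wild-type RPKM, with gene numbers above the bars. Members make up 30.5% of the weakest class, where the filter at 1 RPKM kept mostly raised genes, and 0.620% of the strongest. In the weakest class nearly all raised genes are members (57 of 59), against 9 of 24 in the strongest. The rule largely sets this, since a gene under 1 RPKM in wild type cannot be called 2-fold lower in the deletion.

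Most ratios were modest. On the log2(RPKM + 1) scale the members' ratios of overexpression over wild type had a median of 1.30 and ran up to 3.68, with 69 genes at 3-fold or more (116 of all genes compared, 1.92%), 22 at 4-fold or more (51 genes, 0.845%) and 2 at 8-fold or more (14 genes, 0.232%). As plain RPKM ratios, which the added 1 RPKM does not shrink, the median over the 237 members with a wild-type read was 3.15-fold. The counting interval of the plain ratio lay above 2 for 216 of the 240 members (356 of all genes compared, 5.90%). Of the 237 genes, 166 had a larger plain fold than the 2.48-fold of MHY1 itself, but among the 89 members at 10 RPKM or more in wild type only 35 did. With 1 RPKM added, the rule asks for a larger plain fold the weaker a gene is in wild type. The larger plain folds of weak members are therefore partly set by the selection.

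The members with the highest ratios were weak in both other strains. YALI0F10824g had the highest log2 ratio, 3.68, at 19.4 RPKM in overexpression (892 reads), 0.137 in deletion (5 reads) and 0.583 in wild type (17 reads). Its plain ratio over wild type was 33.2-fold (20.6 to 57.2). YALI0F01518g, the longest member by recovered length (4752 bp), was at 30.4 RPKM in overexpression, 1.11 in deletion and 2.48 in wild type, 12.3-fold above wild type (11.3 to 13.4). Both were highest in overexpression and lowest in deletion, with counting intervals that separate the deletion from wild type.

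YALI0E14971g and YALI0B10087g showed the same order of the libraries. YALI0E14971g was at 12.3 RPKM in overexpression, 0.343 in deletion and 0.768 in wild type. YALI0B10087g was at 14.7, 0.352 and 1.32 RPKM in overexpression, deletion and wild type, 11.2-fold above wild type (8.97 to 14.1). YALI0A15378g was at 12.1 RPKM in overexpression and 0.735 in wild type, and was listed at 0 in deletion, so it was at least 117-fold higher in overexpression than in deletion against a floor of 3 reads (counting interval from 94.7). In these genes the deletion lay within the 2-fold window only because 1 RPKM was added to both values.

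Others among the 12 highest ratios were at similar levels in deletion and wild type or above wild type in the deletion. YALI0A05951g was at 22.5 RPKM in overexpression, 2.25 in deletion and 2.87 in wild type, 7.82-fold above wild type (6.73 to 9.14). YALI0B16412g was at 21.2 RPKM in overexpression, 5.44 in deletion and 3.31 in wild type, 6.40-fold above wild type (5.65 to 7.28). For YALI0B16412g the deletion was 1.64-fold above wild type (1.42 to 1.91), so both changes of MHY1 went with a higher level, more so in overexpression.

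The strongly expressed genes of this group with large ratios were few. YALI0D26411g was at 227 RPKM in overexpression, 23.7 in deletion and 46.2 in wild type, 4.91-fold above wild type (4.54 to 5.32). YALI0B17776g was at 112 RPKM in overexpression, 13.8 in deletion and 20.9 in wild type. YALI0C23815g was at 110 RPKM in overexpression, 31.1 in deletion and 22.0 in wild type, with a counting interval of 4.60 to 5.44 for its fold over wild type. The pair YALI0B17776g and YALI0C23815g reached nearly the same overexpression level while lying on opposite sides of wild type in the deletion.

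**Figure D4:**
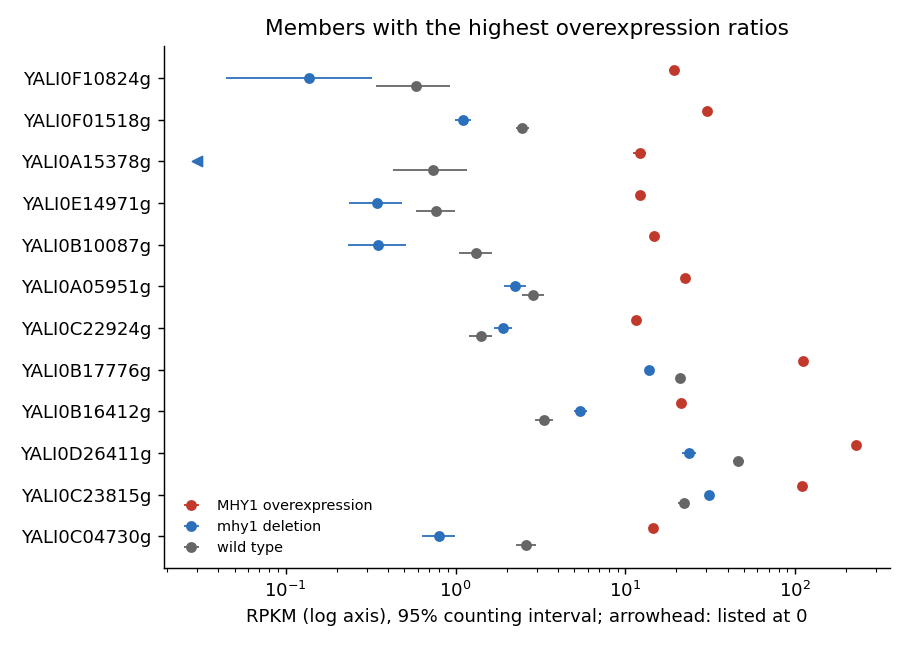
RPKM on a log axis of the 12 members with the highest log2 ratios among those at 10 RPKM or more in overexpression, in the overexpression, deletion and wild-type libraries, with 95% counting intervals per library. The overexpression points stand clear to the right in every row, and the deletion point lies left of wild type in 9 of the 12 rows, counting the arrowhead that marks a value listed at 0.

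At the top of the abundance range the ratios were close to 2-fold. YALI0F00462g, the most abundant member, was at 1673 RPKM in overexpression, 442 in deletion and 809 in wild type. It was 2.07-fold above wild type (2.04 to 2.09), with a log2 ratio of 1.05 that fell under 2-fold at 0.89 with median-of-ratios scaling. YALI0E08085g was at 1209 RPKM in overexpression, 401 in deletion and 546 in wild type, with a log2 ratio of 1.14 that was 0.98 under that scaling. Their place past the 2-fold line thus rests on the scaling.

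YALI0D12408g differed from these abundant genes, being both strong and clearly raised. It was at 695 RPKM in overexpression, 241 in deletion and 172 in wild type, 4.05-fold above wild type (3.91 to 4.20). YALI0B18854g was at 381 RPKM in overexpression, 168 in deletion and 132 in wild type. YALI0B03916g was at 321 RPKM in overexpression, 132 in deletion and 98.4 in wild type. These 3 genes were also above wild type in the deletion, by 1.40-fold, 1.27-fold and 1.34-fold.

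The name of the group, raised only by overexpression, was checked against the deletion library. The members' log2 ratios of deletion over wild type had a median of -0.26, beside -0.03 for all genes compared. By wild-type level, the members' median was -0.15 under 1 RPKM (-0.18 for all genes there), -0.40 from 1 to 10 RPKM (-0.12), -0.27 from 10 to 100 RPKM (-0.03) and -0.44 at 100 RPKM or more (0.02). The members' median lay below that of all genes in every class but the weakest. Of the 240, 171 lay below 0 (53.8% of all genes compared did) and 72 lay below -0.5 (15.7% of all genes). At the other end 17 lay above 0.5 (6.23% of all genes). The rule bounds these values but does not fix their side of 0, and both ratios share the wild-type library, so that an unusual wild-type value moves them the same way.

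Counting intervals divided the members into 3 classes. In 134 the interval of the plain deletion ratio lay below 1 (41.2% of all genes compared), in 38 it lay above 1 (35.2% of all genes), and in 68 it held 1 (23.6% of all genes). The class whose interval held 1 was also the weakest, with a median of 46 wild-type reads against 368 and 872 in the classes below and above 1. An interval that holds 1 there does not show that the deletion left a gene as it was.

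Among weak members the window of the rule was wide. As plain RPKM ratios, 60 of the 240 were at 0.5 or less in the deletion (8.80% of all genes compared), 58 of them under 10 RPKM in wild type, and for 21 the whole counting interval lay below 0.5 (6.36% of all genes). Another 6 were at 2 or more (2.10% of all genes), and with plain ratios in place of the added 1 RPKM, 171 of the 240 stayed in the group. At 10 RPKM or more in wild type 2 of 89 members were at 0.5 or less, against 281 of the 4838 genes compared at that level (5.81%). The rule itself keeps the members' number low there, because the added 1 RPKM changes the ratio little at that level. A deletion log2 ratio within 0.5 of 0 was found in 52 of the 89 members (58.4%) and in 79.9% of the 4838 genes. Whether a weak member counts as raised only by overexpression thus depends on the added RPKM.

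**Figure D5:**
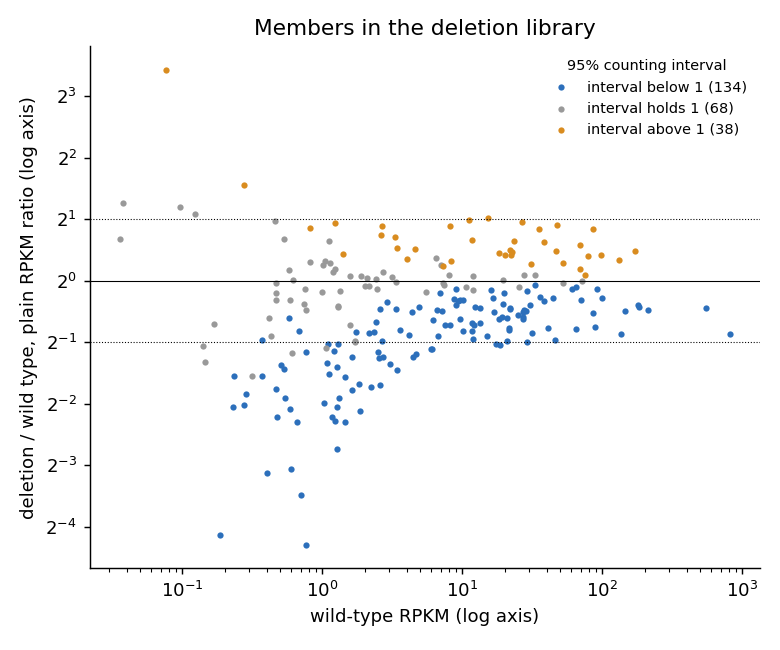
Plain RPKM ratio of deletion over wild type (log axis) against wild-type RPKM (log axis) for the members, coloured by whether the 95% counting interval lies below, holds or lies above 1; the 9 members listed at 0 in either library are counted in the legend but not drawn. Above 10 RPKM the rule keeps nearly all points between the dotted lines at 0.5 and 2, and below it many fall under 0.5.

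Genes that came closest to the name were found among the members whose deletion interval held 1; those printed here have the highest overexpression level of that class, a choice made after their values were seen. YALI0C02431g was at 177 RPKM in overexpression, 51.3 in deletion and 52.4 in wild type, 3.38-fold above wild type (3.24 to 3.54), with a deletion ratio of 0.978 (0.926 to 1.03). YALI0F17996g was at 161 RPKM in overexpression, 71.0 in deletion and 71.3 in wild type, with a deletion ratio of 0.995 (0.974 to 1.02). YALI0E04048g was at 70.2 RPKM in overexpression, 34.9 in deletion and 32.8 in wild type. YALI0C02431g was well past 2-fold, while YALI0F17996g and YALI0E04048g were 2.25-fold and 2.14-fold above wild type, and the log2 ratio of YALI0E04048g was 0.92 with median-of-ratios scaling.

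Several members had no wild-type read at all. YALI0C01067g had 216 reads in overexpression (2.66 RPKM), 2 in deletion and 0 in wild type, at least 45.5-fold above wild type against a floor of 3 reads. YALI0C18249g had 113 reads in overexpression (2.05 RPKM) and 0 in deletion and in wild type, at least 23.8-fold above wild type. YALI0E23672g had 25 reads in overexpression and 0 in both others, at least 5.27-fold above wild type against that floor. The exact counting intervals of these ratios, which allow for error in both libraries, began lower, at 36.7 for YALI0C01067g, 19.1 for YALI0C18249g and 3.98 for YALI0E23672g. In all, 3 members were listed at 0 in wild type and 8 in deletion, and 30 of the 240 had fewer than 20 wild-type reads.

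The overexpression and deletion libraries were then set side by side. They share the rule's libraries, so this too is a description. A member at or below wild type in the deletion is 2-fold above the deletion by the rule itself, as were the 171 below 0. The outcome was open only for the 67 members with a deletion log2 ratio above 0. Of the 240 members, 206 were at least 2-fold higher in overexpression than in deletion (15.0% of all genes compared were), and 63 at least 4-fold (4.46% of all genes). The median log2 ratio was 1.60, beside 0.20 for all genes.

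The other 34 members were less than 2-fold above the deletion. At least 2-fold above it were 12 of the 38 members whose deletion interval lay above 1, and 60 of the 68 whose interval held 1. Some of the 34 therefore had a deletion value not separated from wild type. One was YALI0D11924g, with a deletion ratio of 1.02 (0.826 to 1.26) and a log2 ratio of overexpression over deletion of 0.994. YALI0F03498g, at the upper edge of the window, was at 39.3 RPKM in overexpression, 30.9 in deletion and 15.3 in wild type, only 1.27-fold above the deletion. YALI0A08448g was at 70.9 RPKM in overexpression, 51.7 in deletion and 26.8 in wild type. For YALI0F03498g and YALI0A08448g the wild-type library was the low one of the 3. Without a second wild-type library a low wild-type value cannot be told apart from a rise in both strains.

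Among genes at 10 RPKM or more, YALI0F03432g (51.2 RPKM in overexpression, 17.1 in deletion and 25.1 in wild type) was just inside the 2-fold rise at a log2 ratio of 1.00. YALI0E25845g (289 RPKM in overexpression, 90.9 in deletion and 144 in wild type) was just outside at 0.997. On the deletion side, YALI0D13574g at -0.97 was inside and YALI0F21659g at -1.02 outside, with 43.1 and 85.6 RPKM in overexpression, 9.01 and 17.9 in deletion and 18.6 and 37.3 in wild type. These neighbours across an edge were alike, but at the upper deletion edge YALI0F03498g, inside, was 2.57-fold above wild type, and YALI0F25619g, just outside, 16.5-fold. At the lower edge YALI0A17666g, also just outside at -1.02, was 42.8-fold above wild type. Nearest to the lower edge on the inside was YALI0C04730g at -0.998, 5.64-fold above wild type. Its plain deletion ratio was 0.309 (0.236 to 0.401).

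The nearest other group was the 107 genes raised by overexpression and lowered 2-fold or more by deletion, which include the deleted gene MHY1. Their median RPKM was 61.3 in overexpression, 1.61 in deletion and 12.1 in wild type, against 14.5, 3.15 and 3.80 RPKM for the 240 members. Their median log2 ratio of overexpression over wild type was 1.45, beside 1.30 for the members. A gene has to be at 1 RPKM or more in wild type to be called 2-fold lower in the deletion, so the lower wild-type level of the members is partly set by the rule.

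The 5 genes left out by name met the same thresholds; their names do not come from the files. HOY1 (YALI0A18469g), which encodes a homeobox regulator of hyphal growth, was at 31.7 RPKM in overexpression, 16.0 in deletion and 15.2 in wild type. The triacylglycerol lipase gene TGL3 (YALI0D17534g) was at 106, 18.3 and 28.4 RPKM in overexpression, deletion and wild type. The acyl-CoA oxidase genes POX2 (YALI0F10857g) and POX3 (YALI0D24750g), of the first step of peroxisomal β-oxidation, were 2.93-fold and 2.35-fold above wild type, and the thiolase gene POT1 (YALI0E18568g), of its last step, 2.95-fold. Their wild-type levels of 15.2 to 203 RPKM were all above the members' median of 3.80.

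Features that the rule did not use were examined next, beginning with length. The recovered coding length had a median of 1125 bp in the members and 1158 bp in all genes compared. Under 300 bp lay 12 of the 240 members and 255 of the 6035 genes compared (4.23%). The members' lengths thus centred close to those of all genes.

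By the chromosome letter in the identifier, members were spread over all 6 letters. They made up 5.22% of the genes compared on A (30 genes), 3.34% on B (30), 5.13% on C (44), 3.44% on D (36), 3.24% on E (45) and 4.34% on F (55). The share was highest on A and C and lowest on E. All genes raised at least 2-fold in overexpression were spread much alike, which is largely given, since most of them are the members. Their share was highest on C (8.39%) and A (7.83%) and lowest on D (4.68%) and E (4.83%). At the first and last 20 identifiers of each letter, 7 of 222 genes compared were members (3.15%), against 3.98% of all genes compared.

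Some members lay next to each other in identifier order. There were 33 members (13.8% of the 240) in 16 runs of neighbouring identifiers, 15 of them pairs and 1 of 3 genes. Among the genes that met the rule under other settings, 9 of 171 were in runs with median-of-ratios scaling and 9 of 160 with centring. It was 19 of 195 with upper-quartile scaling and 6 of 136 with a pseudocount of 5 RPKM. A pseudocount of 0.1 RPKM gave 33 of 278 in runs. Of the 5795 other genes compared, 394 (6.80%) lay next to a member. The run of 3 held YALI0C18249g (2.05 RPKM in overexpression, 0 in deletion and 0 in wild type), YALI0C18263g (9.30, 0.543 and 1.11 RPKM) and YALI0C18293g (5.92, 1.40 and 1.23 RPKM), all weak. These 394 neighbours had a median log2 ratio of overexpression over wild type of 0.18, close to the 0.16 of all genes.

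In 10 of the 15 pairs the overexpression levels of the neighbours differed more than 5-fold. YALI0F00440g was at 5.58 RPKM in overexpression, 1.90 in deletion and 2.02 in wild type, beside YALI0F00462g at 1673, 442 and 809. YALI0E08074g was at 4.57 RPKM in overexpression, 1.74 in deletion and 1.11 in wild type, beside YALI0E08085g at 1209, 401 and 546. The labels do not state whether reads were counted by strand, so reads of a weak gene cannot be told apart from those of an overlapping or adjacent strong one. Of the 33 members in runs, 20 were under 10 RPKM in wild type. Only 8 of 132 members were in runs when genes under 10 RPKM in every library were left out.

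Pairs of well-expressed neighbours also occurred. YALI0E07898g was at 173 RPKM in overexpression, 79.8 in deletion and 75.0 in wild type, and YALI0E07920g next to it at 119, 63.7 and 52.5 RPKM, 2.31-fold and 2.27-fold above wild type. YALI0D25476g and YALI0D25498g were at 79.8 and 64.1 RPKM in overexpression, 59.1 and 25.8 in deletion and 38.3 and 28.9 in wild type. The first pair stayed at 2-fold or more under every scaling and pseudocount tried, with lowest log2 ratios of 1.04 and 1.01. The second pair fell under 2-fold with median-of-ratios scaling, at 0.88 and 0.96.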

How the data were processed

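One RNA-seq library per strain was analysed. The authors deposited 1 RPKM value per gene, per the file headers. The tools in the submitters' processing notes are Cufflinks 2.2.1 and TopHat2 2.1.1, with no step named, and a mouse build that cannot have given these identifiers. The yeast build, annotation and strand setting are not stated there. Libraries were made from 1 µg of total RNA with a TruSeq kit, per the labels' protocols. Read totals, reads and coding lengths were recovered from the RPKM steps, which put 99.98% of nonzero values on a whole read (tolerance 0.01). For some genes the recovered length and reads are a fraction of the true ones, which widens their intervals. Ratios were log2((x + 1)/(y + 1)) on RPKM, which understates folds of weak genes. Plain ratios carry exact conditional binomial intervals (95%), and a value of 0 was set against 3 reads. The steps were tested on simulated data that left out genes with few wild-type reads, so they were not tested for the weakest members. Software was Python 3.11.15, numpy 2.4.6, pandas 2.3.3 and scipy 1.17.1. The members and alternatives were chosen with earlier results of these data known. Genes named were the 12 highest ratios at 10 RPKM or more, the 10 most abundant members in overexpression and in wild type, edge genes of the rule, neighbouring members and the excepted genes; with no annotation matched, only some are printed. Functional classes planned by product description were not used, since the RefSeq gene table (ASM176148v1) held 0 of the identifiers.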

Additional observations from a re-analysis of the deposited data

How the results depend on the processing

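Of 49 values of the group under other settings, 27 stayed within 1.5 times of the reported count or within the 95% order-statistic interval of the reported median. The values with no filter, counted among the 27, equal the reported ones by construction, since the rule already needs 1 RPKM or more in overexpression. None of the 49 changed sign, but the counts among them could not, nor could the medians under a changed pseudocount. For the same 240 genes, a pseudocount of 0.1 RPKM gave median log2 ratios of 1.60 (overexpression over wild type) and -0.43 (deletion over wild type) and 74 members at 4-fold. A pseudocount of 5 gave 136 genes by the rule, 101 of them among the 240, and 6 of the 136 lay next to another. For the 240 themselves it gave medians of 0.93 and -0.11, with 116 at least 2-fold over deletion and 5 at 4-fold. A filter at 10 RPKM left 132 genes, 109 of them 2-fold over deletion, 14 at 4-fold and 8 next to another. Median-of-ratios scaling, upper-quartile scaling and centring gave overexpression medians of 1.16, 1.20 and 1.14 for the 240. Among the 171, 195 and 160 genes that then met the rule, 9, 19 and 9 were neighbours. A rise of 1.5-fold gave 808 genes, one of 4-fold 22, and a deletion window of log2 -0.5 to 0.5 gave 151. The direction of the filter, threshold and window moves follows from their construction, as does that of the pseudocount moves for the same 240 genes. For the number meeting the rule it does not, since a pseudocount acts on the rise and the deletion window in opposite ways. Centring subtracts the all-gene median of 0.16 from every overexpression log2 ratio. Median-of-ratios and upper-quartile scaling lowered that median to 0.004 and 0.05, so lower medians for the 240 follow from all 3. The cause of the lower neighbour counts was not tested. Plain ratios were an alternative chosen after seeing the data and gave 255 genes. Of the 64 members under the naming rule, 32 stayed at 2-fold under all scalings and pseudocounts. None fell below 0, but these settings could not bring that about. A pseudocount keeps the sign of a ratio, and the scalings shift genes chosen at 1 or more only slightly. Few reads limit the 30 members under 20 wild-type reads. No paired analysis was possible because each strain had 1 library, so no replicate could be left out.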
